A study of Mus musculus with 4 samples.

Results

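Small proline-rich proteins are building blocks of the cornified envelope, the protein shell of squamous epithelial cells, and the genes described here are Sprr1a, Sprr1b, Sprr2a1, Sprr2b, Sprr2d, Sprr2h and Sprr3 together with Tgm1, the transglutaminase that cross-links such proteins, and Tff3, a secreted trefoil peptide. They were picked by symbol, with their levels in these libraries already known. Sprr1a was the highest gene of every library, and that level is a property the genes were chosen for, so it is given as a description and carries no test. Of the 9 genes, 8 had a row among the 15500 listed genes, and Sprr2d was not analysed here. With reads estimated as explained below, 5 of the 8 genes (Sprr1a, Sprr1b, Sprr2h, Tff3 and Tgm1) exceeded a floor of 3 reads in at least 1 library. Sprr2b and Sprr3 stayed at or under that floor, and no reads were estimated for Sprr2a1, whose near-identical copies share its reads.

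Liver RNA was sequenced from male Kunming mice, an outbred stock, that were 5 weeks old on arrival and were acclimated for 1 week. The Vehicle group ate chow supplemented with 1.5% (w/w) linoleic acid (LA), and the CLA group ate chow with 1.5% (w/w) conjugated linoleic acid in its place. The GW6471 group ate the LA diet and was injected intraperitoneally every day with 20 mg/kg of GW6471, an antagonist of the nuclear receptor PPARα, and the CLA+GW6471 group combined the CLA diet with the same injections. Treatment lasted 28 days, livers were taken at zeitgeber time 8, and the groups held 6 mice each, but the table holds 1 library per condition, and whether RNA of several mice was pooled is not stated. No value below therefore has a replicate error, and no p-value can be given: each ratio describes a pair of libraries. The RNA-seq text of the study describes the Vehicle and CLA groups, so the identity of the GW6471 and CLA+GW6471 libraries rests on the labels. Values are FPKM, fragments per kilobase of transcript after scaling for library size. Their sum was 497015 to 522893 per library, and the depth estimated from the steps between low values was 18800000 to 19280000 reads.

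In squamous epithelia such as epidermis, oesophagus and forestomach, small proline-rich proteins are laid down beneath the plasma membrane together with involucrin and loricrin and are joined by transglutaminases. Sprr1a is also known as a gene that injured neurons and stressed heart muscle switch on. Trefoil peptides protect and repair mucosal surfaces, and Tff3 is best known from intestinal goblet cells.

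The tissue label was checked against markers of hepatocytes, the parenchymal cells of liver. Of 18 hepatocyte markers, 16 were listed, and 5 of these had a mean of at least 1 FPKM. Alb (serum albumin) averaged 922 FPKM, Trf (transferrin) 277 FPKM and Fgb (fibrinogen beta chain) 76.3 FPKM, and Hnf4a, a hepatic transcription factor, averaged 50.2 FPKM. By contrast Ttr (transthyretin) averaged 0.030 FPKM, Fga (fibrinogen alpha chain) 0.055, Cyp2e1 0.065, Cps1 (urea cycle) 0.018 and Apoa1 0.863 FPKM. Ttr, Fga, Cyp2e1 and Cps1 were thus near 0 in all 4 libraries, Apoa1 reached 2.15 FPKM in CLA, and every level below comes from RNA with that profile. In bulk RNA, fewer cells of a type and less RNA per cell cannot be told apart.

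The Sprr1a and Sprr1b coding sequences are shown here because their repeats are what the family is named for, and because a level near that of Sprr1a could spill into a gene with the same sequence. Each lists 6 of the 24-base repeat units from the mm9 transcript annotation, 5′ to 3′, with the shared core GAGCCCTG in capitals. The Sprr1a stretch covers coding bases 136 to 279 of 435, and the Sprr1b stretch coding bases 139 to 282 of 462.
Sprr1a repeats: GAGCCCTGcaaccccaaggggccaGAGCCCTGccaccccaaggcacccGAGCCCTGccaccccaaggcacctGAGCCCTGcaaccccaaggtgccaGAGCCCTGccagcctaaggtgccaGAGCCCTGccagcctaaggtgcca
Sprr1b repeats: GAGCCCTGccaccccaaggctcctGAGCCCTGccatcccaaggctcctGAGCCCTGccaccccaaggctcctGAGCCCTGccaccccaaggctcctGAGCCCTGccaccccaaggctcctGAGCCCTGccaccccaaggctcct
The core occurred 10 times in the Sprr1a and 11 times in the Sprr1b coding sequence. Even so, no stretch of 36 bases of the Sprr1a transcript was present in any other annotated coding transcript, and the same held for Sprr1b, Sprr3, Tgm1 and Tff3. Only exact matches were counted. Whether Sprr1a reads were placed on Sprr1b with mismatched bases was not tested. For Sprr2h, 1.26% of the 36-base stretches were shared with Sprr2e or Sprr2i. For Sprr2b the shared part was 21.4%, and for Sprr2a1 it was 97.9%, with Sprr2a2, Sprr2a3 and Sprr2b and also with Rpl21, a ribosomal protein gene, and its pseudogenes, which leaves the source of the Sprr2a1 value uncertain.

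The promoters of the 3 highest Sprr members are shown because they hold the motifs that recur in the family. They are the 250 bases before the transcription start in the RefSeq promoter table (assembly GRCm38.p6), in which 8 of the 9 genes had an entry. Each sequence had 1 exact match on mm9 chromosome 3, and the positions are those of the match. The RefSeq start of Sprr1a lies inside the gene as annotated on mm9, which ends at 92289816, and distances below are from the RefSeq start. Capitals mark the AP-1 motif TGANTCA, the motif TATAAA and the octamer ATTTGCAT, searched on both strands, and no marked motifs overlap.
Sprr1a, chr3:92289804-92290053, minus strand: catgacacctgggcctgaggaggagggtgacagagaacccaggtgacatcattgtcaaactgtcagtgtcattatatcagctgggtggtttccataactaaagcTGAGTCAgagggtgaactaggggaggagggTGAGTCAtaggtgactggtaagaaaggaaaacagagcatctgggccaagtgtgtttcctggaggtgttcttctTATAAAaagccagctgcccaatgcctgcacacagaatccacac
Sprr1b, chr3:92242702-92242951, minus strand: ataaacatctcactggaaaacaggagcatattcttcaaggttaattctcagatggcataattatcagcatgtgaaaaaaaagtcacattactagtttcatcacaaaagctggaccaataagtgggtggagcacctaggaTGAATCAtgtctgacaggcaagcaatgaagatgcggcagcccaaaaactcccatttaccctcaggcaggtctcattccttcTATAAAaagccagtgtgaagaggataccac
Sprr2h, chr3:92189357-92189606, plus strand: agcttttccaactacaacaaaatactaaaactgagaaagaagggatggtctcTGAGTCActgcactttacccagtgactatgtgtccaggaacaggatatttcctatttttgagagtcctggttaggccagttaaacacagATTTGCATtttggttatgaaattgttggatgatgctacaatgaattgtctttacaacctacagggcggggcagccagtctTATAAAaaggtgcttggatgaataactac
Sprr1a held TGANTCA 2 times, 146 and 116 bases before the start, Sprr1b held it 111 bases before the start and Sprr2h 198 bases before it. TATAAA lay 43, 30 and 29 bases before the start in Sprr1a, Sprr1b and Sprr2h. The octamer was found in Sprr2h, 109 bases before the start, and in neither Sprr1 window. In windows of 300 bases that include 50 bases after the start, TGANTCA was present in 9 of 14 Sprr promoters and in 7.81% of the 32851 promoters of the table, TATAAA in 10 of 14 and 13.6%, and the octamer in 7 of 14 and 1.74%. The Sprr genes belong to 1 family, so their matches are not counted as independent.

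Sprr1a, a cross-linked component of the envelope, lies on the minus strand of mm9 chromosome 3, from 92287877 to 92289816, with 2 exons. Its level was 19046 FPKM in Vehicle, 15810 with CLA, 18795 with GW6471 and 26116 with CLA+GW6471. It ranked 1 in all 4 libraries. The next gene was Eef1a1, a translation elongation factor, at 6169 to 6351 FPKM, and the third was Rps26, a ribosomal protein, except in CLA, where Gapdh, a glycolytic enzyme, took that place at 5419 FPKM. Sprr1a thus stood 3.04-fold above Eef1a1 in Vehicle, 2.49-fold with CLA, 3.05-fold with GW6471 and 4.22-fold with CLA+GW6471. In estimated reads the Sprr1a level corresponds to 288232 in Vehicle, 238380 with CLA, 287606 with GW6471 and 403818 with CLA+GW6471. The order was CLA, GW6471, Vehicle, CLA+GW6471, and the neighbours GW6471 and Vehicle were 1.01-fold apart and changed places when the libraries were set to 1 common FPKM sum.

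The 8 listed genes took 3.74% of the FPKM sum in Vehicle, 3.04% with CLA, 3.79% with GW6471 and 5.04% with CLA+GW6471. Nearly all of it was Sprr1a, with 3.72%, 3.02%, 3.78% and 5.02% in the same order.

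**Figure D1:**
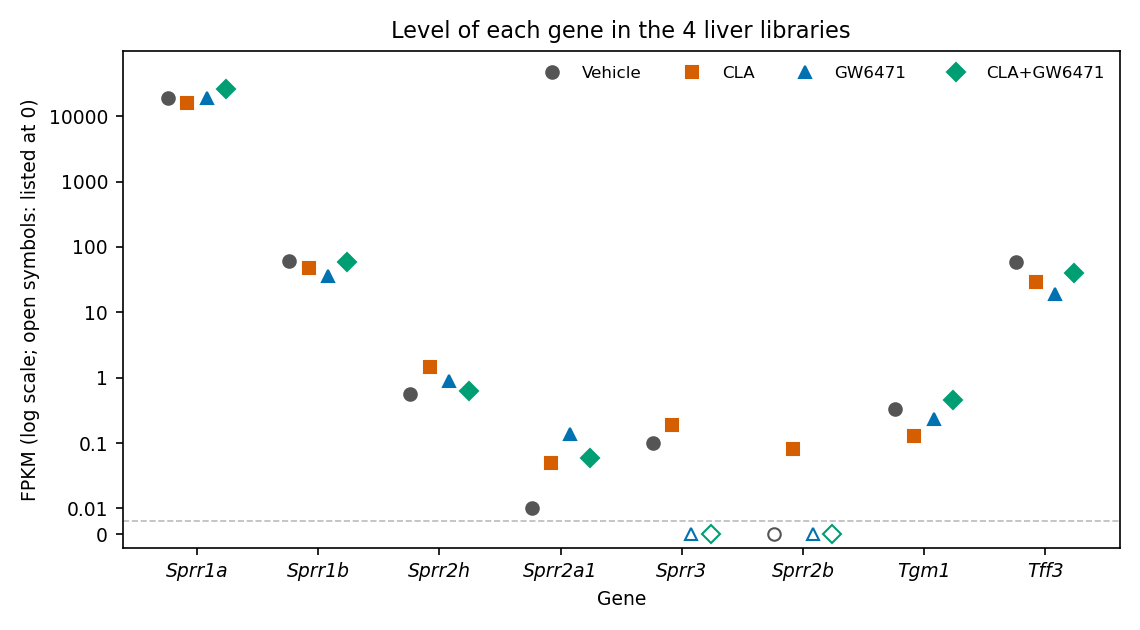
FPKM of the 8 listed genes on a log axis, 1 symbol per library, with open symbols at the bottom for values listed at 0. Sprr1a sits between 15810 and 26116 FPKM, Sprr1b and Tff3 between 19.2 and 61.1 FPKM, and the other genes mostly under 1 FPKM.

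Sprr1b, the closest relative of Sprr1a, lies on the same strand from 92240731 to 92242701, 45.2 kb away. It reached 61.13 FPKM in Vehicle, 47.23 with CLA, 36.25 with GW6471 and 59.28 with CLA+GW6471. Vehicle and CLA+GW6471 were the high libraries, with 946 and 937 estimated reads whose 95% counting intervals overlapped (887 to 1008 and 878 to 999), and GW6471 was the lowest with 567 reads (521 to 616). Per length, Sprr1a exceeded Sprr1b by 312-fold in Vehicle, 335-fold with CLA, 518-fold with GW6471 and 441-fold with CLA+GW6471, so the levels of this pair of genes did not keep a fixed proportion.

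Sprr2h, of the Sprr2 branch, lies on the plus strand from 92189607 to 92191246. Its level was 0.57 FPKM in Vehicle, 1.48 with CLA, 0.90 with GW6471 and 0.63 with CLA+GW6471, which corresponds to 8, 21, 13 and 9 estimated reads. CLA was its highest library, where Sprr1a was lowest. Sprr2a1 (plus strand, 92019757 to 92026407) stood at 0.01, 0.05, 0.14 and 0.06 FPKM in Vehicle, CLA, GW6471 and CLA+GW6471. Sprr2b (plus strand, 92120627 to 92122007) was listed at 0.08 FPKM in CLA, which is 1 estimated read, and at 0 in the other libraries, and the floor of 3 reads, taken as the limit for a count of 0, equals 0.227 FPKM in Vehicle. Sprr3 (minus strand, 92260697 to 92261539), which joins the envelope of oesophageal and oral epithelium, was listed at 0.10 FPKM in Vehicle and 0.19 in CLA and at 0 in GW6471 and CLA+GW6471. Its 3 estimated reads in CLA are at the floor. The Sprr2 and Sprr3 genes were therefore between undetected and 1.48 FPKM while Sprr1a, in the same cluster, was at 15810 FPKM or more.

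Other listed members of the family were low as well. Sprr2e was at 0.84, 0.83, 0.74 and 0.41 FPKM in Vehicle, CLA, GW6471 and CLA+GW6471, Sprr2k at 0.09, 0.34, 0 and 0.17 FPKM, and Sprr2a2 at 0.01, 0.05, 0 and 0.06 FPKM.

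Tgm1, which cross-links envelope proteins at the membrane of keratinocytes, lies on the minus strand of chromosome 14 from 56318846 to 56332329. Its level was 0.33 FPKM in Vehicle, 0.13 with CLA, 0.23 with GW6471 and 0.46 with CLA+GW6471, or 18, 7, 13 and 25 estimated reads. CLA was its lowest and CLA+GW6471 its highest library, as for Sprr1a, although the counting intervals of neighbouring libraries overlapped (2.81 to 14.4 reads with CLA, 6.92 to 22.2 with GW6471, 10.7 to 28.4 in Vehicle and 16.2 to 36.9 with CLA+GW6471).

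Tff3 lies on the minus strand of chromosome 17 from 31262251 to 31266591, next to Tff2 and Tff1. It reached 59.80 FPKM in Vehicle, 29.46 with CLA, 19.20 with GW6471 and 39.46 with CLA+GW6471, from 556, 273, 181 and 375 estimated reads. Vehicle was the highest library and GW6471 the lowest, and the counting intervals of the 4 read numbers did not overlap (511 to 604, 242 to 307, 156 to 209 and 338 to 415). Tff2, a gastric trefoil peptide, stood at 47.98, 50.77, 29.34 and 41.32 FPKM, and Tff1 at 22.12, 22.02, 11.28 and 15.18 FPKM. All 36-base stretches of the Tff1 transcript also occur in Gm3090, so the Tff1 level is uncertain. GW6471 was the lowest library for Tff3, Tff2 and Tff1. The ratio of CLA to Vehicle was 0.493 for Tff3 (95% counting interval 0.425 to 0.571), 1.06 for Tff2 (0.937 to 1.19) and 0.995 for Tff1 (0.812 to 1.22).

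CLA against Vehicle addresses the CLA diet without the antagonist. Ratios are given as log2(FPKM + 0.1). Of the 8 genes, 1 (Sprr2h) was at least 2-fold higher, against 2.59% of all listed genes, and 1 (Tff3) at least 2-fold lower, against 1.72%. Tff3 was 2.03-fold lower in CLA (log2 ratio -1.02, 95% counting interval of the fold 1.75 to 2.35). Sprr1a was 1.20-fold lower (log2 ratio -0.27, 1.20 to 1.21) and Sprr1b 1.29-fold lower (log2 ratio -0.37, 1.17 to 1.43). Sprr2h was 2.60-fold higher, on few reads (1.12 to 6.88), and Tgm1 was 2.54-fold lower before the pseudocount (1.02 to 7.26), with a log2 ratio of -0.90. The central 95% of genes with a mean of at least 1 FPKM lay between -0.74 and 0.89 on the log2 scale. Tff3 was outside this range, and Sprr1a and Sprr1b were inside it. Over the 5 genes above the floor the median log2 ratio was -0.37, with 4 lower and 1 higher, beside a median of -0.01 over genes with a mean of at least 1 FPKM.

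GW6471 against Vehicle addresses the antagonist on the LA diet. At least 2-fold higher was 1 gene, Sprr2a1, against 1.34% of listed genes, and 2 were at least 2-fold lower, Tff3 and Sprr3, against 1.41%. For Sprr3 both libraries were at or under the floor. The Sprr2a1 value rests on the division of reads with its copy Sprr2a2, which was listed at 0 in GW6471 and at the same values as Sprr2a1 in the other 3 libraries. Tff3 was 3.11-fold lower in GW6471 (log2 ratio -1.63, interval of the fold 2.62 to 3.69), the widest Tff3 difference of the 4 comparisons. Sprr1b was 1.69-fold lower (log2 ratio -0.75, 1.52 to 1.88). The central 95% of genes spanned -0.56 to 0.63, and Tff3 and Sprr1b were outside it. Sprr1a differed by -0.02, which became 0.02 once all libraries were set to 1 common FPKM sum, so it had no fixed direction. Sprr2h was 1.58-fold higher (0.617 to 4.47) and Tgm1 1.43-fold lower (0.649 to 3.11), both within counting error. The median over the 5 genes was -0.38, with 4 lower and 1 higher.

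CLA+GW6471 against CLA addresses the antagonist on the CLA diet. At least 2-fold higher was 1 gene, Tgm1, against 2.32% of listed genes, and 2 were at least 2-fold lower, Sprr2h and Sprr3, against 3.55%. Sprr1a was 1.65-fold higher in CLA+GW6471 (log2 ratio 0.72), the largest Sprr1a difference of the 4 comparisons, and it lay inside the central 95% of genes, -1.02 to 0.82. Tff3 was 1.34-fold higher (log2 ratio 0.42, 1.14 to 1.57) and Sprr1b 1.26-fold higher (log2 ratio 0.33, 1.14 to 1.38). Tgm1 was 3.54-fold higher (log2 ratio 1.28, 1.46 to 9.54) and Sprr2h 2.35-fold lower (log2 ratio -1.11, 1.05 to 5.93). Sprr3 went from 3 estimated reads to 0, for which no fold is given. The median over the 5 genes was 0.42, with 4 higher and 1 lower, beside 0.01 over genes with a mean of at least 1 FPKM.

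CLA+GW6471 against GW6471 addresses the CLA diet in the presence of the antagonist. At least 2-fold higher was 1 gene, Tff3, against 1.49% of listed genes, and 0 genes were at least 2-fold lower, against 1.50%. With the libraries set to 1 common FPKM sum the Tff3 value was 0.97, and 0.99 with these genes left out of the sum, and then 0 genes were at least 2-fold higher. As deposited, Tff3 was 2.06-fold higher in CLA+GW6471 (log2 ratio 1.04, 1.71 to 2.46) and Sprr1b 1.64-fold higher (log2 ratio 0.71, 1.47 to 1.82), both outside the central 95% of genes, -0.70 to 0.61. Sprr1a was 1.39-fold higher (log2 ratio 0.47), inside that range. Tgm1 was 2-fold higher before the pseudocount and had a log2 ratio of 0.76 with it (interval of the fold 0.937 to 4.05) and Sprr2h 1.43-fold lower (0.577 to 3.87), both within counting error. The median over the 5 genes was 0.71, with 4 higher and 1 lower. The 4 comparisons share libraries, so their values are not independent of each other.

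**Figure D2:**
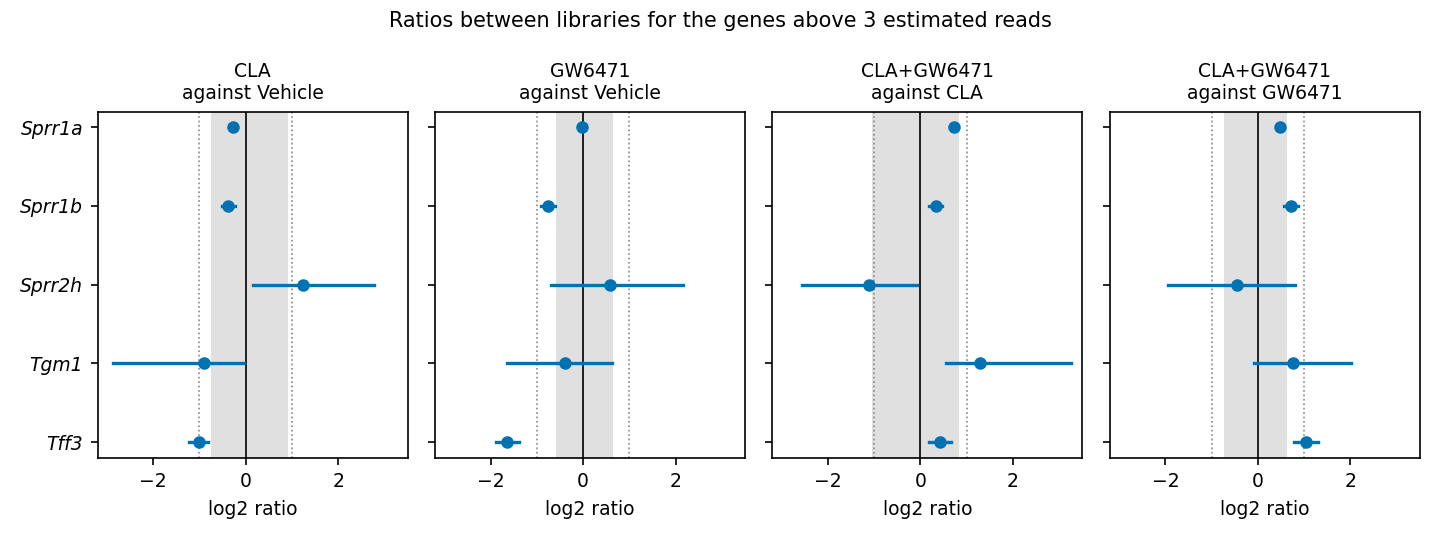
Log2 ratio of FPKM + 0.1 for the 5 genes above the floor in each comparison (points), with 95% counting intervals of the ratio without the pseudocount (bars), the central 95% of genes with a mean of at least 1 FPKM (grey) and the 2-fold limits (dotted). Tff3 lies at -1.02 and -1.63 against Vehicle and at 1.04 in CLA+GW6471 against GW6471, and the bars of Sprr2h and Tgm1 are wide.

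Genes of the envelope that are not small proline-rich proteins were examined as a list of 33, of which 20 were listed and 10 had a mean of at least 1 FPKM. Highest were S100a11 (1405 FPKM on average), S100a10 (798 FPKM) and Anxa1 (69.8 FPKM), the first 2 of the S100 family and the third an annexin, all of which also serve outside the epidermis. Among those more specific to squamous cells, involucrin (Ivl) averaged 2.23 FPKM, envoplakin (Evpl) 0.118 and Sbsn, a suprabasal secreted protein, 7.03 FPKM. Cdsn averaged 5.74 FPKM and periplakin (Ppl) 3.59 FPKM, and 10 of the 20 listed genes averaged under 1 FPKM. In CLA against Vehicle 0 of the 10 were at least 2-fold different, against 2.53% of genes with a mean of at least 1 FPKM, and their median log2 ratio was 0.26, or 0.01 over all 20 listed genes. In GW6471 against Vehicle 1 of 10 was at least 2-fold higher, against 0.869% in either direction. This gene was Dmkn (dermokine), at 3.54 FPKM in Vehicle and 7.23 in GW6471, with 7.02 in CLA and 3.85 in CLA+GW6471. In CLA+GW6471 against CLA and against GW6471 the counts were 0 of 10, against 3.93% and 1.16%. The list medians in these last comparisons were -0.13 and -0.10, and 0.12 in GW6471 against Vehicle, and all 3 were 0 over the 20 listed genes. The late envelope genes Lce1g and Lce1h were not on the list, so these counts and medians leave them out. Lce1g was more than 2-fold lower in CLA (2.71 FPKM) and in GW6471 (3.22 FPKM) than in Vehicle (7.46 FPKM). Lce1h stood at 7.32 FPKM in Vehicle, 5.45 in CLA and 4.32 in GW6471.

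Of 7 further transglutaminases, 6 were listed. Tgm2, the broadly expressed tissue transglutaminase, averaged 45.2 FPKM, with 39.18, 48.39, 48.49 and 44.69 FPKM in Vehicle, CLA, GW6471 and CLA+GW6471, and thus exceeded Tgm1 in every library. Tgm4 averaged 1.28 FPKM and F13a1, the clotting factor subunit, 0.023 FPKM. Neither Tgm2 nor Tgm4 was at least 2-fold different in any comparison, which says little beside the 0.869% to 3.93% of genes with a mean of at least 1 FPKM that were. Of 17 trefoil and mucous genes beside Tff3, 14 were listed and only Tff2 and Tff1 averaged at least 1 FPKM. Clca3 averaged 0.393 FPKM. Their median log2 ratio was 0.04 for CLA and -0.84 for GW6471 against Vehicle, and for CLA+GW6471 it was -0.42 against CLA and 0.46 against GW6471. Over all 14 listed genes the medians against Vehicle were nearer 0 for GW6471 (-0.08), as were those of CLA+GW6471 against CLA (-0.19) and against GW6471 (0), and neither gene was at least 2-fold different in any comparison.

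Transcription factors of squamous epithelium were a list of 16, of which 14 were listed and 7 averaged at least 1 FPKM. Fosl1 was the highest at 173.77 FPKM in Vehicle, 98.46 with CLA, 135.43 with GW6471 and 204.49 with CLA+GW6471. It is a subunit of AP-1, the factor that binds the TGANTCA motif shown for Sprr1a, Sprr1b and Sprr2h. CLA was the lowest and CLA+GW6471 the highest library for Fosl1, as for Sprr1a. By contrast, Sprr1b was lowest in GW6471 (36.25 FPKM) and Sprr2h was highest in CLA (1.48 FPKM). Fosl1 was 1.76-fold lower in CLA than in Vehicle (1.69 to 1.84) and 2.08-fold higher in CLA+GW6471 than in CLA (1.99 to 2.17). Whether the level of Fosl1 has a part in that of Sprr1a was not tested. Klf4 averaged 46.2 FPKM, with CLA (39.36 FPKM) its lowest and CLA+GW6471 (50 FPKM) its highest library as well. Ehf averaged 14.2 FPKM and went the other way, highest in CLA (16.94 FPKM) and lowest in CLA+GW6471 (11.33 FPKM). Grhl2 was higher in CLA (2.32 FPKM) than in Vehicle (0.88 FPKM), as was Hopx (1.63 and 0.70 FPKM), and the keratinocyte lineage factor Trp63 averaged 0.025 FPKM. At least 2-fold higher were 2 of 7 for CLA against Vehicle, with a median log2 ratio of 0.45, and 1 of 7 for GW6471 against Vehicle, with a median of 0.26. For CLA+GW6471 the counts were 1 of 7 against CLA and 0 of 7 against GW6471, with medians of -0.33 and -0.14, and 0 were at least 2-fold lower in any of them. Over all 14 listed factors the medians were 0.04 for GW6471 against Vehicle and, for CLA+GW6471, -0.08 against CLA and 0.01 against GW6471. Over all genes with a mean of at least 1 FPKM, the shares at least 2-fold different in either direction were 2.53%, 0.869%, 3.93% and 1.16% in these comparisons.

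Markers of the cell types that express these genes were compared with the level of Sprr1a. Of 14 keratinocyte markers 12 were listed and 3 averaged at least 1 FPKM, namely Itgb4 (22.9 FPKM), Krt5 (3.25 FPKM) and Krt10 (1.12 FPKM). The defining basal keratin Krt14 averaged 0.040 FPKM, and the summed list ranged from 25.9 to 30.7 FPKM over the 4 libraries. Of 7 urothelium markers 6 were listed, with Krt20 at 86.0 FPKM, Upk1a at 1.43, Psca at 1.39 and Upk2 at 0.030 FPKM, and a summed range of 85.8 to 94.8 FPKM. Of 8 goblet cell markers 7 were listed, and apart from Tff1 none reached 1 FPKM: Clca3 averaged 0.393, Agr2 0.173 and Muc2 0.020 FPKM. The summed goblet list was 11.7 to 22.8 FPKM, most of it Tff1. Of 12 cholangiocyte markers 11 were listed and 6 averaged at least 1 FPKM, with Spp1 at 425, Cldn4 at 71.4 and Sox9 at 48.8 FPKM, but Krt19 averaged 0.140 FPKM. The summed range was 496 to 707 FPKM. Krt14, Upk2 and Muc2 were thus each under 0.05 FPKM on average while Sprr1a averaged 19942 FPKM.

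**Figure D3:**
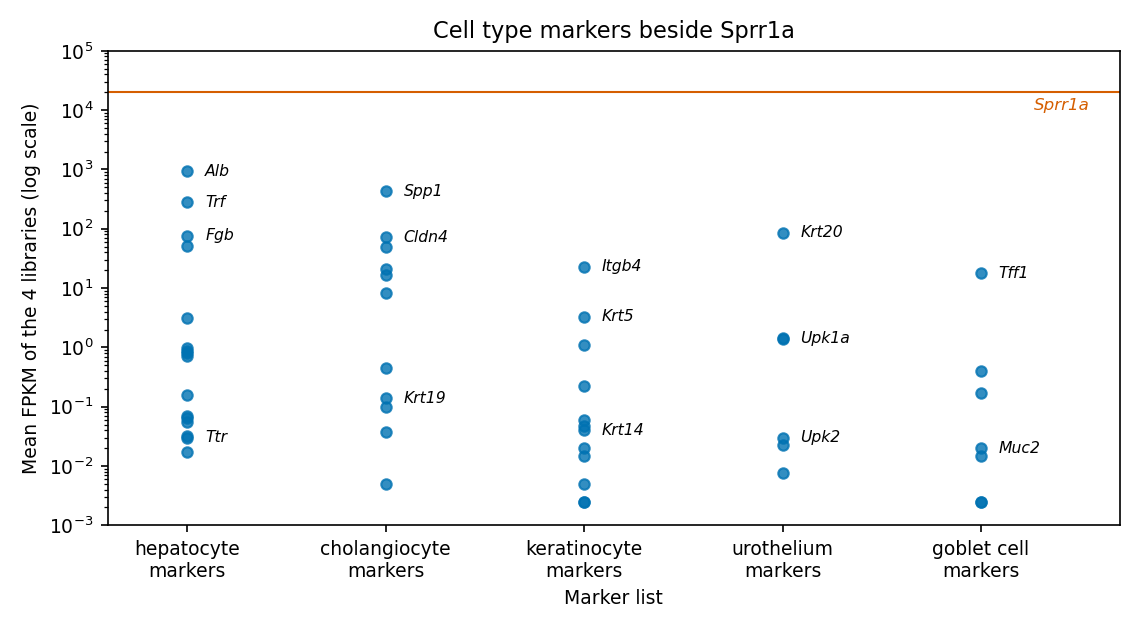
Mean FPKM over the 4 libraries, on a log axis, of every listed gene in 5 marker lists (points) beside the mean of Sprr1a (line). The highest marker is Alb at 922 FPKM, and Ttr, Krt14, Upk2 and Muc2 lie under 0.05 FPKM.

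The hepatocyte markers also differed between the libraries. Their summed level was 1007 FPKM in Vehicle, 1867 with CLA, 1525 with GW6471 and 934 with CLA+GW6471, so that CLA, the lowest library for Sprr1a, was the highest and CLA+GW6471, the highest for Sprr1a, was the lowest. Most of the sum is Alb. Alb was at 679.53, 1321.55, 1067.32 and 620.17 FPKM, Trf at 221.83, 351.19, 316.42 and 219.56 FPKM, and Fgb at 45.22, 138.03, 86.43 and 35.68 FPKM in the same libraries. Hnf4a, at 54.53, 47.31, 47.23 and 51.84 FPKM, and Apoa2, at 0.82, 0.76, 0.65 and 1.73 FPKM, did not follow this order. Of the cholangiocyte markers, Cldn4 was at 89.77, 49.98, 55.38 and 90.30 FPKM and Sox9 at 54.74, 34.72, 48.67 and 57.05 FPKM, low in CLA as Sprr1a was. Spp1 was at 372.04, 574.44, 452.82 and 301.97 FPKM, with CLA the highest library. What part the hepatocyte and cholangiocyte markers have in the Sprr1a, Sprr1b and Tff3 levels was not tested.

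**Figure D4:**
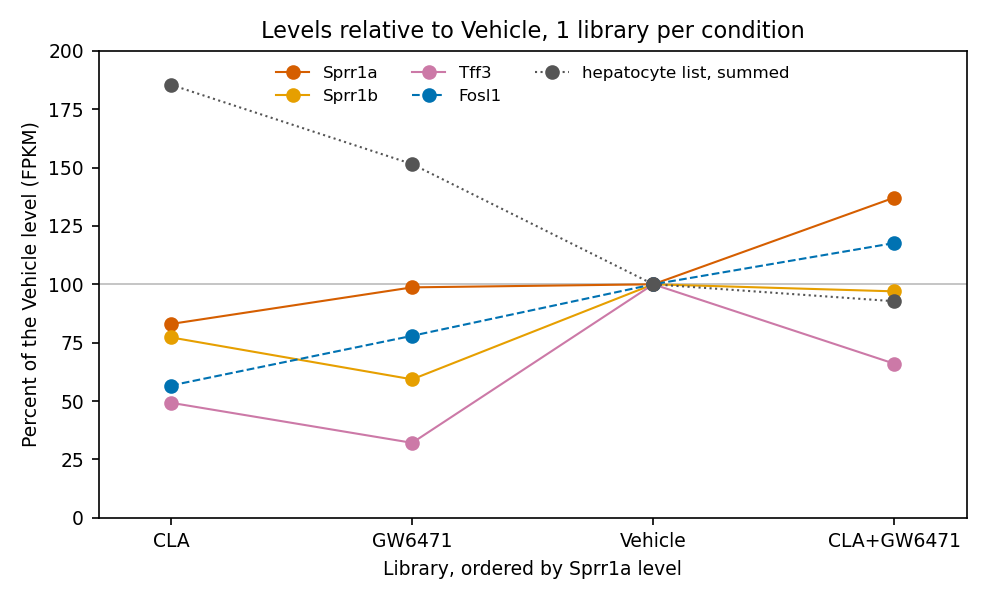
FPKM in each library as a percentage of the Vehicle library for Sprr1a, Sprr1b, Tff3, Fosl1 and the summed hepatocyte list, 1 library per condition with lines only to guide the eye. Libraries are ordered by Sprr1a, from 15810 FPKM in CLA to 26116 in CLA+GW6471. Along that order the hepatocyte sum goes from 1867 to 934 FPKM and Fosl1 from 98.5 to 204 FPKM, and Sprr1b and Tff3 are lowest in GW6471.

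The Sprr genes form 1 cluster of 16 annotated genes on mm9 chromosome 3, 285 kb long from 92019757 to 92304415, within the epidermal differentiation complex, with 12 genes on the plus strand and 4 on the minus strand. Within 1000 kb of the Sprr1a start there were 55 protein-coding genes, of which 25 were listed and 5 averaged at least 1 FPKM. Besides Sprr1a and Sprr1b these were Ivl and the late envelope genes Lce1g and Lce1h. The mean of Sprr1a was 391 times that of the next gene in the window, Sprr1b. Sprr3, which lies between Sprr1b and Sprr1a, 26337 bases from the latter, averaged 0.073 FPKM. Of the 25 listed genes of the window, 12 averaged under 0.1 FPKM.

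**Figure D5:**
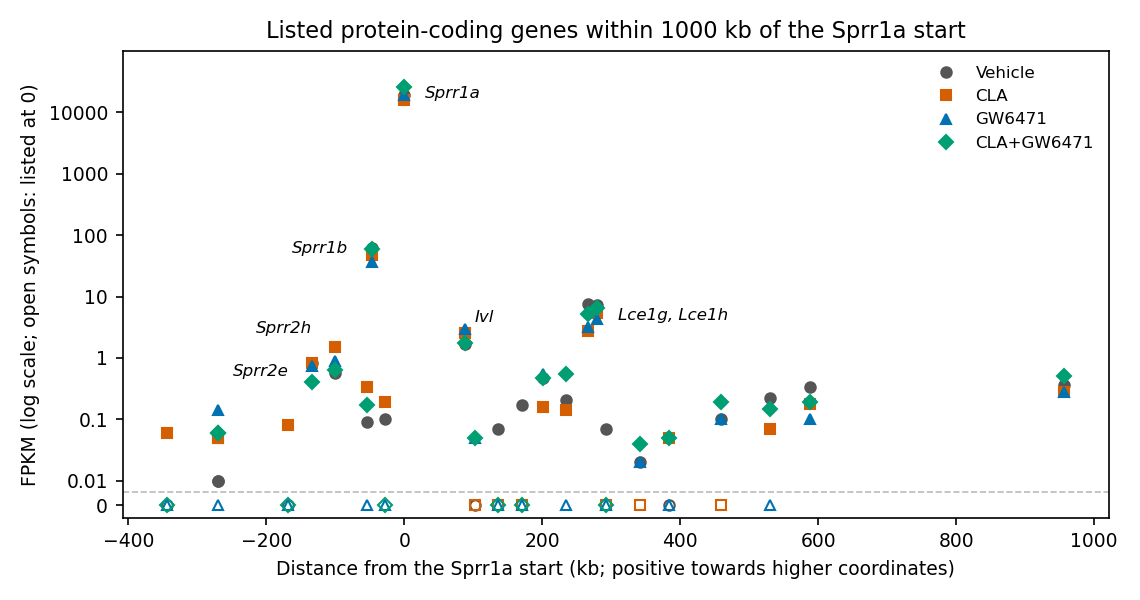
FPKM on a log axis of the 25 listed protein-coding genes within 1000 kb of the Sprr1a start, against distance in kb, with 1 symbol per library and open symbols for values listed at 0. Sprr1a lies at 15810 to 26116 FPKM, Sprr1b next at 36.3 to 61.1 FPKM, and 20 of the 25 genes average under 1 FPKM.

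Genes with the most similar profile were sought by the Euclidean distance between centred log2(FPKM + 0.1) values over the 4 libraries, among 8181 genes with a mean of at least 5 FPKM. Nearest to Sprr1a were Alg3 (distance 0.062), at 21.98, 17.88, 21.43 and 28.49 FPKM in Vehicle, CLA, GW6471 and CLA+GW6471, then Rfng (0.078) and Gatc (0.11). Nearest to Tff3 were Serpinb9b (0.47), at 36.66, 25.67, 17.67 and 27.66 FPKM, Dhrs11 (0.60) and Taf1a (0.60), so no gene followed Tff3 as closely as Alg3 followed Sprr1a. Nearest to Sprr3 were Slco1a5 (0.27), 1110058L19Rik (0.44) and Apoc2 (0.62), a likeness that rests on at most 3 Sprr3 reads per library. With 4 libraries, a small distance is a description of these profiles.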

How the data were processed

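Livers of 4 groups of mice were profiled by RNA-seq (Illumina TruSeq libraries), 1 library per condition. The authors mapped reads to mm9 with BWA and Bowtie and quantified them with Cufflinks (versions and annotation release are not given in the sources used here), and they deposited FPKM with 2 decimals for 15500 genes. The header names no unit. FPKM was taken from Cufflinks and from the values.

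No read counts were used. The depth was estimated as the number of reads at which the FPKM times transcript length of low genes of up to 1000 nt fell nearest to whole reads (18800000 to 19280000). Reads per gene were computed with the longest coding GENCODE vM1 transcript, and 95% intervals of a fold are exact (Clopper-Pearson). Intervals and the floor of 3 reads cover counting error only, and not the error of the depth or the transcript length. Differences are log2 ratios of FPKM + 0.1, described as at least 2-fold or not, with no test, since each group is 1 library. Estimates were checked on simulated data. Calculations used scipy 1.17.1, pandas 2.3.3 and numpy 2.4.6 under Python 3.11.15, and plots matplotlib 3.10.9.

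The genes and the gene lists (cornified envelope, transglutaminases, trefoil and mucous genes, squamous transcription factors, and markers of keratinocytes, hepatocytes, cholangiocytes, urothelium and goblet cells) were chosen with earlier results of these data known. Named beside them were all other listed Sprr and Tff genes, the 3 highest genes of each library, the 3 highest of each list, for the first 4 lists the 2 with the largest ratio in CLA against Vehicle, and the 3 genes most like Sprr1a, Sprr3 and Tff3. Other markers and genes near Sprr1a (Hnf4a, Apoa2, Ttr, Fga, Cyp2e1, Cps1, Apoa1, Ivl, Evpl, Cdsn, Ppl, Trp63, Krt14, Krt19, Upk2, Muc2, Lce1g and Lce1h) were named after their values were seen. Gene positions are from GENCODE vM1 (mm9). Promoter sequences and motif shares are from a RefSeq table on GRCm38.p6, and the printed promoters were placed by exact match on mm9, with no coordinates converted. Alternatives were a pseudocount of 0.01 or 1, 3 scalings, a filter at a mean of 1 FPKM and a 1.5-fold limit.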

Additional observations from a re-analysis of the deposited data

Results flagged for a closer look

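For all 5 genes above the floor, the ratio of CLA to LA diet had opposite signs without and with GW6471. Without the antagonist (CLA against Vehicle) the log2 ratio was -0.27 for Sprr1a, -0.37 for Sprr1b, -1.02 for Tff3, -0.90 for Tgm1 and 1.24 for Sprr2h. With it (CLA+GW6471 against GW6471) the values were 0.47 for Sprr1a, 0.71 for Sprr1b, 1.04 for Tff3, 0.76 for Tgm1 and -0.45 for Sprr2h. Opposite signs were also found for 7558 of the 10355 genes with a mean of at least 1 FPKM (73.0%) and for 9335 of all 15500 listed genes (60.2%), so the pattern is not particular to these 5 genes. Among the markers, Alb stood at 0.96 and -0.78, Fgb at 1.61 and -1.27, Fosl1 at -0.82 and 0.59, and Cldn4 at -0.84 and 0.70 without and with GW6471, and their part in the pattern was not tested. With 1 library per condition the difference between the diets' effects was not tested, and for Tgm1 and Sprr2h the ratio in the presence of GW6471 was within counting error. The genes were measured in the same 4 libraries, so these pairs of values are not independent of each other.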

How the results depend on the processing

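No paired analysis was possible because each group holds 1 library and the groups share only the replicate number 1. Of 100 values of single genes under an alternative, 98 kept their sign. The other 2 were Sprr1a in GW6471 against Vehicle, which went from -0.02 to 0.02 with the libraries scaled to the same FPKM sum, with or without these genes in the sum. The numbers of genes at least 2-fold different are small and moved with the pseudocount and the scaling. In CLA against Vehicle the 1 higher and 1 lower became 3 and 2 with a pseudocount of 0.01, 0 and 0 with a pseudocount of 1, and 2 and 2 at a 1.5-fold limit, and 0 were higher among genes with a mean of at least 1 FPKM. In GW6471 against Vehicle the 1 higher and 2 lower became 0 and 1 with a pseudocount of 1 and with the filter at a mean of 1 FPKM, 1 was lower after scaling by the median of ratios, and 3 were lower at 1.5-fold. In CLA+GW6471 against CLA the 1 higher and 2 lower became 0 and 0 with a pseudocount of 1 and with that filter, 2 were higher at 1.5-fold, and 3 were lower at 1.5-fold or with a pseudocount of 0.01. In CLA+GW6471 against GW6471 the 1 higher and 0 lower became 3 and 1 at 1.5-fold, 0 were higher with either scaling to the same FPKM sum (Tff3 at 0.97 and 0.99), 1 was lower with a pseudocount of 0.01, and the median of the 5 genes went from 0.71 to 0.47 with a pseudocount of 1. The share of the FPKM sum over genes with a mean of at least 1 FPKM was 3.75% in Vehicle, 3.80% in GW6471 and 5.05% in CLA+GW6471. Of 48 list medians under an alternative, 12 moved by over 0.1, each without the filter on low values. Scaling moved the median of all genes by at most 0.07. Depth limits Sprr2b, Sprr3 and Sprr2h, where 1 read is worth about 0.07 FPKM. It also limits Tgm1, which rests on 7 estimated reads in CLA and 25 in CLA+GW6471.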

Other observations

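Lce1g and Lce1h, late cornified envelope genes beyond the Sprr4 end of the Sprr cluster, were named after their values were seen. Neither was on the list of envelope genes. Lce1g stood at 7.46 FPKM in Vehicle, 2.71 with CLA, 3.22 with GW6471 and 5.24 with CLA+GW6471, and Lce1h at 7.32, 5.45, 4.32 and 6.42 FPKM. For both genes Vehicle and CLA+GW6471 were the higher libraries, as for Sprr1b and Tff3. The Lce1 genes are close relatives, and how the reads were divided among them is not known.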
